A study of Mus musculus with 32 samples.

Results

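The 10 genes followed here carry out fatty acid oxidation and lipid handling: Cpt1a, Cpt2, Acadl, Acadm, Acads, Hadh, Acaa2, Cd36, Fabp3 and Angptl4. They were taken by name from the 8251 genes on the array, with every probe set annotated to exactly 1 of them, which gave 16 of 12422 probe sets. RNA of C2C12 cells, an established mouse myoblast line that stops dividing and fuses into myotubes in differentiation medium, was measured on 32 Affymetrix arrays in 2 arms. In the first, TSA cells received trichostatin A (TSA), which blocks the zinc-dependent histone deacetylases, and control cells are labelled without it, with no word on a vehicle. Both were sampled before differentiation (0 h) and 4, 12, 24 and 48 h into differentiation, on 2 arrays a group and 20 in all. In the second, the titles name pHan with Sir2 (Sir2 cells), a deacetylase that uses NAD and is called Sirt1 in the mouse, or pHan alone, taken here as the empty vector (vector cells), without saying what pHan is. These were sampled 12 and 36 h into differentiation, on 3 arrays a group and 12 in all. All groups are the same cell line, and the labels give neither the dose and duration of TSA nor the species of the Sir2 sequence. The labels do not name separate cultures, so p-values reflect the spread between arrays of a group, which may be technical.

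Long-chain fatty acids enter a cell with the help of the membrane protein Cd36 and are carried in the cytosol by fatty acid binding proteins, of which Fabp3 is the form of heart and skeletal muscle. Cpt1a couples the acyl group to carnitine at the outer mitochondrial membrane, the rate-controlling step of entry, and Cpt2 returns it to coenzyme A inside. Each round of oxidation then starts with an acyl-CoA dehydrogenase for long (Acadl), medium (Acadm) or short chains (Acads). It passes through a hydroxyacyl-CoA dehydrogenase such as Hadh, and ends with a thiolase such as Acaa2. Angptl4 is a secreted inhibitor of lipoprotein lipase, the enzyme that frees fatty acids from circulating lipoproteins. Many of these genes are known targets of the PPAR nuclear receptors, and differentiating muscle is known for raising its capacity to take up and oxidize fatty acids.

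RefSeq promoter sequences (build GRCm38.p6, from 250 bases before to 50 after the transcript start) matched 8 of the 10 genes. Those of Cpt1a and Hadh, which fell together in TSA-treated cells between 0 and 48 h, and of Fabp3, which rose there, are printed 5′ to 3′ on the gene's strand. Capitals mark the GC box GGGCGG and the E-box CANNTG, the core bound by myogenic factors, each searched on both strands, and they do not overlap. Cpt1a lies at chr19:3323051-3323350 on the plus strand, Hadh at chr3:131272052-131272351 on the minus strand and Fabp3 at chr4:130308488-130308787 on the plus strand.
Cpt1a: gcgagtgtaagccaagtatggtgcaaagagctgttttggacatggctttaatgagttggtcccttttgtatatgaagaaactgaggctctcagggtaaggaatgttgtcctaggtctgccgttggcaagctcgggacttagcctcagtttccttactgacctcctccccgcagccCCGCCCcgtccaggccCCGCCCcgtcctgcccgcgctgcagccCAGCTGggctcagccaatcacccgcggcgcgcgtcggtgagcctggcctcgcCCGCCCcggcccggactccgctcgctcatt
Hadh: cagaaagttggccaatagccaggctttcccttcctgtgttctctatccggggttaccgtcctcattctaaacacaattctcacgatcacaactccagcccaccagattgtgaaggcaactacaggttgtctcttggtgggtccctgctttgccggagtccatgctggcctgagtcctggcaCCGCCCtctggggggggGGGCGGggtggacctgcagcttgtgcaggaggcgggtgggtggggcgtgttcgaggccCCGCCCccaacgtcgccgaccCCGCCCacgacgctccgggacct
Fabp3: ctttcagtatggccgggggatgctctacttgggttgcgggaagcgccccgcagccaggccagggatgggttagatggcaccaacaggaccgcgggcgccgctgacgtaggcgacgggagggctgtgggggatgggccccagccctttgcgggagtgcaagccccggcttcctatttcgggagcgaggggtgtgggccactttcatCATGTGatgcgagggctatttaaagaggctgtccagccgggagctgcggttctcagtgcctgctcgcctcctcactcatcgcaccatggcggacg
The Cpt1a window held 3 GC boxes and 1 E-box, the Hadh window 4 GC boxes and 0 E-boxes, and the Fabp3 window 0 GC boxes and 1 E-box. Of the windows not printed, that of Acadl held 4 GC boxes, Cpt2 3, Cd36 2, Acads 1 and Acadm 0. Acadl, Cpt2 and Acads thus held the GC box without passing between 0 and 48 h in TSA-treated cells. Of 32851 RefSeq mouse promoters of the same length, 35.7% held the GC box and 72.3% the E-box. The TATA box TATAAA and the PPAR direct repeat (AGGNCA as 2 copies with 1 base between them) were not found in any of the 8 windows, and 13.6% and 0.381% of all promoters held them. These matches describe letters only.

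The deposited intensities are linear, with 1 value for a probe set on each array. Arrays had been scaled within each arm, to trimmed means of 800.57 to 800.69 with TSA and control and of 150.08 to 150.1 with Sir2 and vector, so levels are not compared between arms or between probe sets. On the TSA and control arrays 21% to 24.2% of values were at or below 0. Log2 changes are differences of log2(intensity + pseudocount) with the standard error after ±, and understate the change of dim probe sets. A probe set passed a comparison at a Benjamini-Hochberg adjusted p under 0.05 in limma, over the 7453 probe sets tested in its arm. The ratio of the Gapdh 3′ to 5′ probe sets, a measure of RNA integrity, was 0.815 ± 0.0440 in TSA-treated and 0.866 ± 0.0416 in control cells (SD, n = 10 each), and 0.780 ± 0.0578 in Sir2 and 0.834 ± 0.0442 in vector cells (SD, n = 6 each). The Sirt1 probe set averaged 42.1 ± 5.90 in Sir2 cells against 14.7 ± 5.40 in vector cells at 12 h, and 61.8 ± 23.2 in Sir2 against 32.0 ± 10.8 in vector cells at 36 h (SD, n = 3 each). The Sirt1 probe set passed at 12 h (log2 change 1.135 ± 0.272, adjusted p = 0.0316 in limma) but not at 36 h (0.771 ± 0.272, 0.106). At 36 h its lowest Sir2 array (35.8) lay below its highest vector array (39.4). Whether this probe set detects the introduced Sir2 is not known.

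The cells carried the markers of their label. The summed intensity of 10 skeletal muscle markers, all 10 of which passed the filter in both arms, was 122732 to 134084 in control cells at 48 h, against 7468 to 9323 at 0 h. It also differed between the groups compared. At 0 h it was 11216 to 11324 in TSA-treated against 7468 to 9323 in control cells. At 4 h it was 12500 to 12665.5 in TSA-treated against 10350 to 10459 in control cells. At 12 h it was 11674 to 12261 in TSA-treated against 12485 to 13451.5 in control cells. The sum was 29576 to 32014 in TSA-treated against 51589.8 to 51811 in control cells at 24 h, and 154633 to 181422 in TSA-treated against 122732 to 134084 in control cells at 48 h. It was 4149 to 4769.7 in Sir2 against 8235 to 8961 in vector cells at 12 h, and 20172 to 23753 in Sir2 against 29341 to 29790.3 in vector cells at 36 h. The sum of 6 cell cycle markers was 6772 to 8075 in TSA-treated against 31714 to 33779 in control cells at 0 h, 16355 to 17631 in TSA-treated against 26672 to 30188.4 in control cells at 4 h, and 9545 to 10703 in TSA-treated against 4293 to 5102 in control cells at 48 h. It was 5511 to 6160.2 in Sir2 against 4278 to 4673 in vector cells at 12 h, and 1969 to 2079 in Sir2 against 1498 to 1636 in vector cells at 36 h. The part of these differences in the results on lipid genes was not tested, and fewer cells of a type and less RNA per cell cannot be told apart. Of 8 adipocyte markers on the array 2 passed the filter, Cebpa (medians of 861.0 with TSA and control, 206.9 with Sir2 and vector) and Lep (973.7 and 171.8). The adipocyte genes Fabp4, Adipoq, Lipe, Retn, Cidea and Pparg did not pass the filter. Their medians were 77.5, 125.1, 31.5, -388.3, 22.6 and 16.3 in the first arm. In the second they were 9.52, 13.8, 20.6, 4.43, 18.6 and 29.3, where Lipe reached 54.5 and Pparg 43.7. The adipocyte sum was 1529 to 2111 in TSA-treated against 2485 to 3541 in control cells at 0 h. At 4 h it was 2066 to 2664 in TSA-treated against 3444 to 3450.4 in control cells, and at 12 and 24 h the groups overlapped. It was 1279.7 to 1527 in TSA-treated against 2060.4 to 2407 in control cells at 48 h. In the second arm it was 453.7 to 593.6 in Sir2 against 397.4 to 547.6 in vector cells at 36 h. Of 7 endothelial and 7 macrophage markers, 2 each passed the filter in the first arm (Kdr, Flt1, Cd14 and Csf1r, with medians of 958.3, 274.9, 985.5 and 196.4), and 0 and 2 in the second. The endothelial Cdh5 was at -183.8 to 19.7 and the leukocyte gene Ptprc at -98.2 to 68.2 in the first arm.

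A filter on the mean over an arm (144.9 for TSA and control, 31.1 for Sir2 and vector) kept 12 of the 16 probe sets in each arm, covering 9 of the 10 genes. Probe sets of a gene are told apart here by the suffix of their array name. Cd36 fell below the filter: its at probe set ran from -14.7 to 202.4 on the TSA and control arrays and from 3.22 to 20.3 on the Sir2 and vector arrays, and its r_at probe set was at or below 0 on 19 of the 20 TSA and control arrays. The r_at probe sets of Cpt2 and Angptl4 were also too dim to test. Cpt1a, Cpt2, Acadl, Acadm, Hadh, Acaa2 and Fabp3 each had 1 tested probe set, Acads had the r_at and at probe sets, and Angptl4 had the s_at, f_at and at probe sets. With TSA and control, Fabp3 passed the filter only through the TSA-treated 48 h arrays: its mean was 176.7 over all 20 arrays and 115.7 without these 2, and 14 of the 20 arrays were below the filter. The adjusted p-values of its calls in that arm are therefore given from the fit with no filter, over all 12422 probe sets, which does not depend on its level.

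Cpt1a and Hadh were higher in TSA-treated than in control cells before differentiation (0 h), with the Cpt1a call lost under most alternatives. From 12 h on Cpt1a and Acaa2 were lower, and at 48 h Fabp3 was higher. Angptl4 at 48 h had a mean intensity of 0.103 of control on the s_at probe set, while its at probe set did not pass. Among the acyl-CoA dehydrogenases only Acadm passed, at 4 and 12 h. By count, 2 of 12 probe sets passed at 0 h, both higher, where 17.9% of all probe sets passed, 7.90% as higher and 10% as lower. At 4 h 1 passed, lower (11.4% of all, 5.61% higher and 5.74% lower). At 12 h 3 passed, all lower (4.08% of all, 2.56% higher and 1.52% lower), with a median log2 change of -0.35 over the 12 against -0.02 over all tested. At 24 h 5 passed, all lower (5.94% of all, 2.67% higher and 3.27% lower), with a median of -0.58 against 0.00. By the brightest tested probe set of each gene, 4 of 9 genes passed at 24 h and 4 of 9 at 48 h. At 48 h 5 passed, 4 lower and, as higher, Fabp3, which that group itself had brought past the filter (19.6% of all, 10.5% higher and 9.10% lower), with a median of -0.26 against -0.03. For the mean of the 5 times 6 passed, all lower (22.0% of all, 10.2% higher and 11.9% lower), and 6, Fabp3 among them, passed the F test of whether the TSA effect differed between times (22.2% of all). The 5 calls at 24 h were 2 without control replicate 3 and 3 without TSA replicate 2, and the 3 at 12 h were 2 without any 1 of the 4 arrays.

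**Figure D1:**
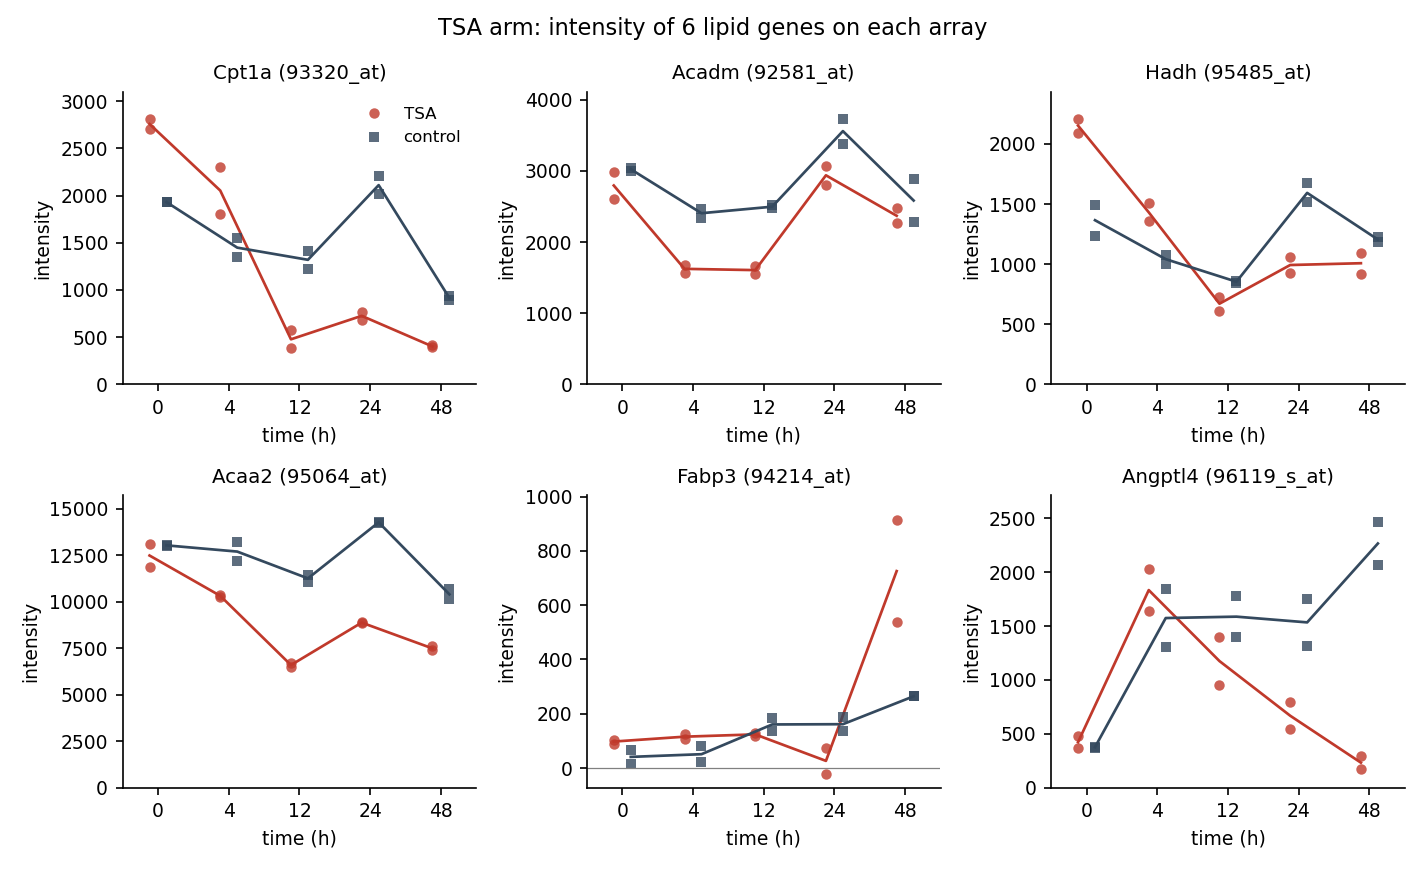
Intensity (linear scale, arbitrary units) of 6 lipid genes on each array of the TSA arm at 0, 4, 12, 24 and 48 h. Red circles are TSA-treated and dark squares control arrays, and lines join the means of 2 arrays. Cpt1a lies below control from 12 h on, and the s_at probe set of Angptl4 lies at 0.103 of control at 48 h. The 2 TSA-treated arrays of Fabp3 at 48 h (913.0 and 538.5) stand above the control arrays.

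Only RNA was measured here, not the entry of fatty acids into mitochondria. Cpt1a, an enzyme of that entry, lay above control before 12 h and below it from 12 h on. Its intensity was 2816 and 2700.4 in TSA-treated cells against 1931 and 1930.4 in control cells at 0 h, and 2303 and 1803 in TSA-treated against 1344 and 1552 in control cells at 4 h. At 12 h it was 573.4 and 380.8 in TSA-treated against 1227 and 1412 in control cells, at 24 h 771.3 and 679.7 in TSA-treated against 2202 and 2019 in control cells, and at 48 h 411.7 and 391.8 in TSA-treated against 940.9 and 889.1 in control cells. The arrays of the groups did not overlap at any of the 5 times, with TSA-treated cells higher at the first 2 and lower at the last 3. The log2 change was 0.49 ± 0.16 at 0 h (adjusted p = 0.0499 in limma), -1.26 ± 0.16 at 12 h (5.73e-04), -1.38 ± 0.16 at 24 h (1.86e-04) and -0.96 ± 0.16 at 48 h (0.00103). At 4 h it was 0.46 ± 0.16 and did not pass (adjusted p = 0.0838). The call at 0 h was lost with median centring (adjusted p = 0.0588), the smaller pseudocount (0.0631) or no filter (0.056). It was also lost with the replicate block (0.061), the title suffix covariate (0.0521) or only the groups compared (0.052). Without any 1 of the 4 arrays it did not pass either, with log2 changes of 0.457 to 0.514. The effect differed between times (F test, adjusted p = 7.15e-05). Cpt2, the inner membrane partner, passed at no single time and averaged a log2 change of -0.25 ± 0.08 over the 5 times (adjusted p = 0.0345), a call lost under 13 of 29 alternatives (adjusted p = 0.0172 to 0.077). Among these were the fits without control replicate 1 at 0, 4 or 48 h, control replicate 2 at 12 h, control replicate 3 at 24 h, TSA replicate 1 at 0, 12 or 48 h, TSA replicate 2 at 0, 4 or 12 h, and TSA replicate 3 at 24 h. Its intensity ran from 1263 to 1578 on the 10 TSA-treated arrays and from 1412 to 2303 on the 10 control arrays, so the groups overlapped.

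Among the dehydrogenases, Acadm was 1681 and 1566 in TSA-treated against 2343 and 2467 in control cells at 4 h, and 1659 and 1552 in TSA-treated against 2521 and 2472 in control cells at 12 h. The groups did not overlap at either time, and the log2 change was -0.53 ± 0.13 (adjusted p = 0.0164) and -0.60 ± 0.13 (0.0171). Each call was lost when any 1 of the 4 arrays was left out, with adjusted p of 0.00651 to 0.139 at 4 h and 0.00635 to 0.153 at 12 h over the alternatives. At 0, 24 and 48 h its log2 changes were -0.11, -0.27 and -0.11 and did not pass. Over the 5 times it averaged -0.32 ± 0.06 (adjusted p = 0.00115), a call kept under all 29 alternatives. Acadl passed at no time, with log2 changes of 0.09, 0.24, -0.05, -0.54 and 0.10 in time order. It was 606.1 and 810.8 in TSA-treated against 1010.5 and 1154.2 in control cells at 24 h, where the groups did not overlap (adjusted p = 0.113 in limma). The Acads probe sets did not pass either. At 48 h the r_at probe set was 619.4 and 563.6 in TSA-treated against 1112 and 1313 in control cells, a log2 change of -0.89 ± 0.30 (adjusted p = 0.0573), and the at probe set, with -0.12 ± 0.29, overlapped. The r_at probe set passed with the 60th percentile filter (0.0408) and with trend and robust variance (0.0491).

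Hadh, a hydroxyacyl-CoA dehydrogenase, had the same order of groups as Cpt1a at each of the 5 times. It was 2094 and 2211 in TSA-treated against 1494 and 1236 in control cells at 0 h, 1505 and 1356 in TSA-treated against 1003 and 1079.7 in control cells at 4 h, and 613.2 and 728.3 in TSA-treated against 845.4 and 862.0 in control cells at 12 h. At 24 h it was 926.5 and 1059 in TSA-treated against 1514 and 1671 in control cells, and at 48 h 919.5 and 1095 in TSA-treated against 1224 and 1185 in control cells. TSA-treated arrays lay above the control arrays at 0 and 4 h and below them at 12, 24 and 48 h. The log2 change passed at 0 h (0.61 ± 0.13, adjusted p = 0.00488) and at 24 h (-0.61 ± 0.13, adjusted p = 0.0131), and the mean over the 5 times was -0.02 ± 0.06. At 4 h it was 0.41 ± 0.13 and did not pass (adjusted p = 0.0593), but passed under 5 alternatives (0.0339 to 0.0498). The effect differed between times (F test, adjusted p = 0.00148). Without control replicate 2 the call at 0 h was lost (adjusted p = 0.0657, range 0.00221 to 0.0657), and at 24 h it was lost without control replicate 3 (0.106) or TSA replicate 2 (0.101), within a range of 0.00589 to 0.263.

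Acaa2, the thiolase of the last step, was 6496 and 6700.2 in TSA-treated against 11054 and 11456 in control cells at 12 h, 8916 and 8843 in TSA-treated against 14281 and 14253 in control cells at 24 h, and 7601 and 7386 in TSA-treated against 10138 and 10660.5 in control cells at 48 h. The groups did not overlap, and the log2 change was -0.76 ± 0.09 (adjusted p = 5.73e-04), -0.68 ± 0.09 (8.79e-04) and -0.47 ± 0.09 (0.00433) at these times. At 0 h it was 11873 and 13095 in TSA-treated against 13059.9 and 12999.9 in control cells, and at 4 h 10388 and 10248 in TSA-treated against 13189.5 and 12203 in control cells. Neither passed, with log2 changes of -0.06 and -0.29. The change at 4 h passed with quantile normalization (-0.46, adjusted p = 0.00686), no filter (0.00353), the 60th percentile filter (0.0323), and trend and robust variance (0.0204). Over the 5 times it averaged -0.45 ± 0.04 (adjusted p = 9.30e-06), and the effect differed between times (F test, adjusted p = 0.0104).

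Of the uptake genes, Fabp3 was 913.0 and 538.5 in TSA-treated against 264.9 and 263.7 in control cells at 48 h. The change was 1.07 ± 0.25 (adjusted p = 0.016 with no filter), and in the filtered fit without TSA replicate 1 it did not pass (0.0805). At 24 h Fabp3 was -21.2 and 73.8 in TSA-treated against 188.0 and 135.0 in control cells, a log2 change of -0.80 ± 0.25 that did not pass (adjusted p = 0.0801). The TSA-treated arrays were thus below the control arrays at 24 h and above them at 48 h, and the effect differed between times (F test, adjusted p = 0.0262 with no filter). The muscle marker sum differed in the same directions at these 2 times. Cd36 was 130.8 and 35.1 in TSA-treated against -4.57 and 26.0 in control cells at 48 h, at or near the lower limit of the arrays.

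Angptl4, the lipase inhibitor, had the largest log2 change of TSA against control among the 12 tested probe sets. On the s_at probe set it was 476.6 and 369.6 in TSA-treated against 373.8 and 380.5 in control cells at 0 h, and 2031 and 1635 in TSA-treated against 1842 and 1305 in control cells at 4 h, with overlapping arrays. It was 952.7 and 1397.5 in TSA-treated against 1778 and 1396 in control cells at 12 h, 544.1 and 792.9 in TSA-treated against 1754 and 1313 in control cells at 24 h, and 170.2 and 296.8 in TSA-treated against 2463 and 2066 in control cells at 48 h. The groups did not overlap at 24 and 48 h. The log2 change was -1.06 ± 0.25 at 24 h (adjusted p = 0.0253) and -2.71 ± 0.25 at 48 h (adjusted p = 1.48e-05), where the mean intensity was 0.103 of control. The f_at probe set gave 69.9 and -76.7 in TSA-treated against 1113 and 1269 in control cells at 48 h, so no ratio is given. Its log2 change on the floored scale was -2.97 ± 0.21 (adjusted p = 1.75e-06). The at probe set did not pass: it was 271.6 and 320.6 in TSA-treated against 295.3 and 460.0 in control cells at 48 h, a log2 change of -0.23 ± 0.22. At 24 h the f_at probe set passed as well (adjusted p = 0.0134), at 0.413 of the control mean. The s_at call at 24 h was lost without control replicate 2 (0.171), control replicate 3 (0.0501) or TSA replicate 2 (0.172), within a range of 0.0139 to 0.239. The f_at call at 24 h was lost without control replicate 3 (0.136) or TSA replicate 3 (0.119), within a range of 0.00686 to 0.264, and the 48 h calls were kept under all alternatives except the fit of only the 4 arrays compared.

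**Figure D2:**
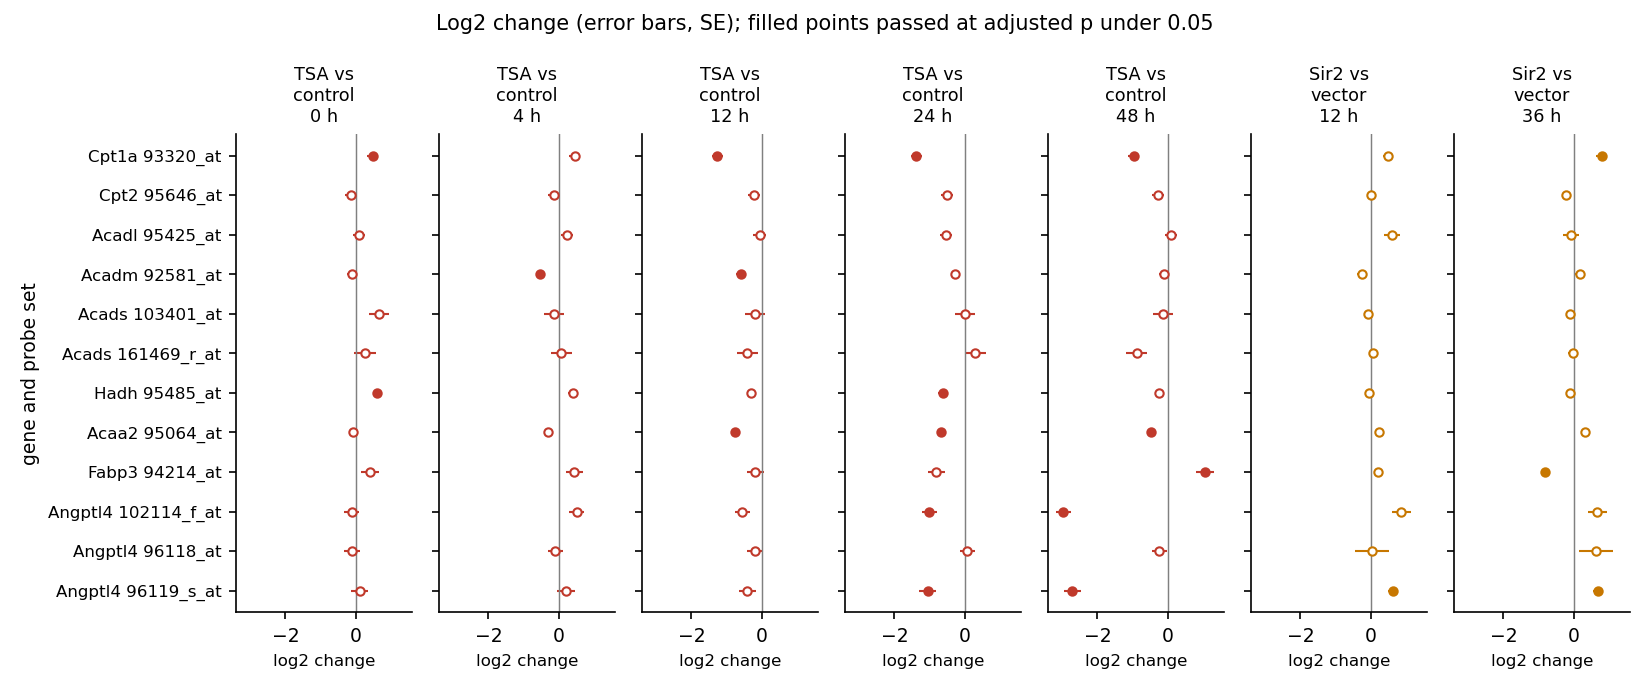
Log2 change of each tested lipid probe set, TSA over control at 5 times (red) and Sir2 over vector at 2 times (orange), with bars for the standard error. Filled points passed at adjusted p under 0.05. Cpt1a lies right of 0 at 0 and 4 h of TSA and left of it from 12 h on, and both Angptl4 probe sets that passed reach beyond -2 at 48 h.

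In control cells Cpt1a and Acaa2 were lower at 48 h of differentiation than at 0 h. Fabp3 and the s_at and f_at probe sets of Angptl4 were higher. Between 48 h and 0 h, 5 of 12 probe sets passed, 3 higher and 2 lower (35.3% of all, 16.0% higher and 19.3% lower), and over the 5 times 8 passed the F test (2980 of all 7453, or 40%). Both counts include Fabp3, which passed the filter only through the TSA-treated 48 h arrays. Cpt1a fell by 0.98 on the log2 scale (adjusted p = 3.73e-04) and Acaa2 by 0.32 (0.018). Neither fell steadily. In time order the control means were 1931, 1448, 1319, 2110 and 915 for Cpt1a. For Acaa2 they were 13030, 12696, 11255, 14267 and 10399. Both were highest at 24 h, as were Cpt2, Acadl, Acadm and Hadh. Fabp3 rose by 1.18 ± 0.25 (0.0053 with no filter), to 264.9 and 263.7 at 48 h, against 16.1 and 65.9 at 0 h. Angptl4 on the s_at probe set rose by 2.22 ± 0.25 (2.00e-05), to 2463 and 2066 at 48 h, against 373.8 and 380.5 at 0 h. In TSA-treated cells 5 passed between 48 h and 0 h, 1 higher and 4 lower (26.4% of all, 12.1% higher and 14.2% lower). The higher 1 was Fabp3, which the 48 h group compared here had itself brought past the filter. Cpt1a fell by 2.42 on the log2 scale (adjusted p = 1.93e-07), and Acaa2 by 0.72 (9.50e-05). Hadh fell to 0.468 of its 0 h mean (8.42e-05), Angptl4 on the f_at probe set fell by 0.97 on the log2 scale (0.00424), and Fabp3 rose by 1.84 ± 0.25 (3.62e-04 with no filter). The f_at probe set of Angptl4 was 69.9 and -76.7 at 48 h, and its change ran from -1.43 to -0.61 over the alternatives. The brighter s_at probe set did not pass (-0.61 ± 0.25, adjusted p = 0.0931). In control cells Cd36 on the at probe set was -4.57 and 26.0 at 48 h against 103.3 and 134.6 at 0 h, and with no filter it passed between these times (-0.77, adjusted p = 0.0494) and in the control series F test (0.0362). Both series share their own 48 h and 0 h arrays with the comparisons of TSA against control. For Acaa2 the control change was lost without control 0 h replicate 1 (adjusted p = 0.0787), control 0 h replicate 2 (0.0728) or control 48 h replicate 1 (0.0826), within a range of 5.89e-04 to 0.17.

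Cpt1a and the s_at probe set of Angptl4 were higher in Sir2 than in vector cells and Fabp3 was lower at 36 h. Cpt2, the acyl-CoA dehydrogenases and Hadh passed at neither time. At 12 h 1 of 12 probe sets passed, higher (5.55% of all, 2.78% each as higher and lower), and at 36 h 3 passed, 2 higher and 1 lower (9.26% of all, 6.04% higher and 3.22% lower). For the mean of both times 5 passed, 4 higher and 1 lower (12.6% of all, 7.49% higher and 5.09% lower). The difference of the Sir2 effects at the 2 times passed for 1 probe set, lower (1.76% of all, 1.27% higher and 0.483% lower). With median centring of each array the split of all calls moved, to 124 higher of 339 at 12 h, against 207 of 414 without it, to 478 of 632 at 36 h, against 450 of 690, and to 120 of 141 for the difference, against 95 of 131. The count of 5 for the mean became 2 to 5 when 1 array was left out.

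**Figure D3:**
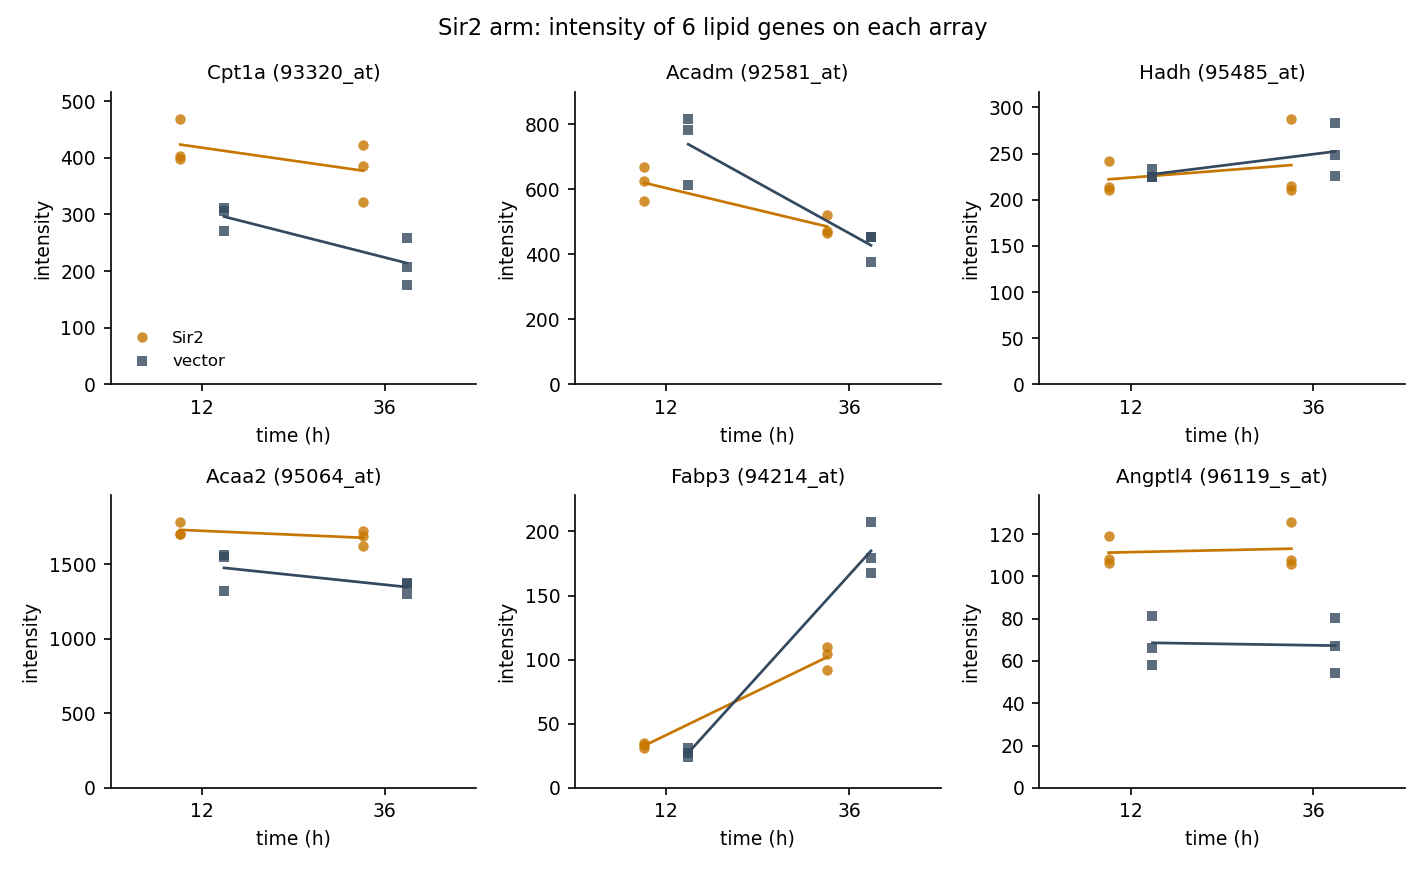
Intensity (linear scale, arbitrary units) of 6 lipid genes on each array of the Sir2 arm at 12 and 36 h. Orange circles are Sir2 and dark squares vector arrays, and lines join the means of 3 arrays. All Sir2 arrays of Cpt1a and of the s_at probe set of Angptl4 lie above the vector arrays of the same time, and those of Fabp3 at 36 h lie below.

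Cpt1a was 402.9, 469.3 and 398.0 in Sir2 cells against 270.7, 311.9 and 306.2 in vector cells at 12 h, and 385.8, 423.1 and 322.8 in Sir2 against 207.9, 258.5 and 176.1 in vector cells at 36 h. The groups did not overlap at either time. The log2 change was 0.50 ± 0.15 at 12 h (adjusted p = 0.0783, not passed, but 0.0389 with the 60th percentile filter and 0.0393 with trend and robust variance), 0.80 ± 0.15 at 36 h (adjusted p = 0.00546) and 0.65 ± 0.11 for the mean of both (adjusted p = 0.00169). The calls at 36 h and for the mean were kept under every alternative tried. Acaa2 was 1704, 1706 and 1783 in Sir2 against 1548, 1559.6 and 1320.4 in vector cells at 12 h, and 1619.8, 1723 and 1691 in Sir2 against 1300.3, 1366 and 1376 in vector cells at 36 h. It also did not overlap, and its mean change of 0.27 ± 0.07 passed (adjusted p = 0.0243), but the call was lost with median centring (0.0626), no filter (0.0552), or without Sir2 36 h replicate 2 (0.0507), vector 12 h replicate 3 (0.0562) or vector 36 h replicate 1 (0.0553), within a range of 0.0053 to 0.0626.

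Angptl4 on the s_at probe set was 119.1, 108.2 and 106.4 in Sir2 cells against 66.1, 58.3 and 81.3 in vector cells at 12 h, and 125.7, 106.0 and 107.6 in Sir2 against 54.4, 66.9 and 80.5 in vector cells at 36 h, with no overlap at either time. The log2 change was 0.64 ± 0.15 at 12 h (adjusted p = 0.0259) and 0.69 ± 0.15 at 36 h (0.0124). The 12 h call was lost without each array except vector replicate 3, within a range of 0.00964 to 0.0949, and the 36 h call without Sir2 replicate 1 (0.0543) or vector replicate 1 (0.051), within a range of 0.00425 to 0.0543. The mean of both times, 0.67 ± 0.10 (adjusted p = 0.00127), was kept under every alternative. The f_at probe set passed for the mean (0.78 ± 0.19, adjusted p = 0.0208), a call lost without Sir2 36 h replicate 1 (0.0513) or vector 12 h replicate 3 (0.054), within a range of 0.00168 to 0.054. At 12 h its lowest Sir2 array (42.0) lay below its highest vector array (50.7). The at probe set did not pass (0.34 ± 0.35) and overlapped at both times.

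Fabp3 was 92.0, 104.2 and 109.8 in Sir2 cells against 167.8, 179.6 and 207.4 in vector cells at 36 h, a log2 change of -0.80 ± 0.12 (adjusted p = 0.00126) with no overlap. At 12 h it was 30.8, 34.7 and 33.3 in Sir2 against 24.1, 27.1 and 30.7 in vector cells, higher by 0.21 ± 0.12 and not passed. The 2 effects differed by -1.02 ± 0.17 (adjusted p = 0.0146), kept in each fit that tested it. The mean of both times was -0.30 ± 0.08 (adjusted p = 0.0359), lost under 11 of 19 alternatives (0.0261 to 0.0866), 9 of which left out 1 array: any Sir2 12 h array, Sir2 36 h replicate 1 or 2, vector 12 h replicate 2 or 3, or vector 36 h replicate 2 or 3. The muscle marker sum was lower in Sir2 than in vector cells at both times. In vector cells Fabp3 rose by 2.42 ± 0.12 at 36 h over 12 h (adjusted p = 3.57e-08), while Acadm fell by 0.77 on the log2 scale (9.04e-04) and Cpt1a by 0.47 (0.0327), so that 3 of 12 passed, 1 higher and 2 lower (32.1% of all, 12.4% higher and 19.7% lower). The Cpt1a fall was lost without 4 of the 6 vector arrays (vector 12 h replicates 2 and 3, vector 36 h replicates 1 and 3), with adjusted p of 0.0114 to 0.132 over the alternatives. Cd36 was 3.30, 4.57 and 6.62 in Sir2 against 9.97, 20.3 and 8.76 in vector cells at 36 h, at the lower limit of the arrays.

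Other genes of fatty acid use were read from 4 lists, by the brightest tested probe set of each gene. Among genes of mitochondrial oxidation and acyl-CoA supply, 15 of the 16 on the array were tested in each arm. For the mean of the 5 times 7 of the 15 were lower with TSA and 0 higher, where 22.0% of all passed, 11.9% as lower, with a median of -0.06 against -0.03 over all tested. They included the enoyl-CoA isomerase Eci2 (-0.31 ± 0.05, adjusted p = 7.34e-04) and the enoyl-CoA hydratase Echs1 (-0.86 ± 0.16, adjusted p = 0.0019). At 12 h 0 of the 15 passed in limma (4.08% of all), with 2 at an unadjusted p under 0.05 and a median of -0.146 against -0.023. At 24 h 1 passed, lower (5.94% of all), with 6 at an unadjusted p under 0.05 and a median of -0.225 against 0.003. At 48 h 4 passed, 2 higher and 2 lower (19.6% of all), with a median of -0.16 against -0.03. Hadhb, a subunit of the trifunctional protein, was 3332 ± 73.6 in TSA-treated against 2149.9 ± 257.9 in control cells, and Ivd, of leucine breakdown, was 841.5 ± 71.2 in TSA-treated against 373.0 ± 84.1 in control cells (SD, n = 2 each). Slc25a20, the carnitine carrier that works between Cpt1a and Cpt2, was 1038 ± 118 in TSA-treated against 1880.5 ± 70.9 in control cells (SD, n = 2 each), a log2 change of -0.78 ± 0.13 (adjusted p = 9.12e-04). At 0 h it was higher in TSA-treated cells by 0.60 ± 0.13 (adjusted p = 0.00449), and in control cells it rose by 1.32 ± 0.13 between 48 h and 0 h. With Sir2 1 of the 15 passed at 36 h, the acyl-CoA synthetase Acsl5, by 0.41 ± 0.10 (adjusted p = 0.0187), where 9.26% of all passed, with a median of -0.14 over the 15 against -0.02 over all tested. Among peroxisomal genes, 1 of 6 tested passed for TSA at 48 h (19.6% of all), Ech1 (-0.64 ± 0.13, adjusted p = 0.00398), and 0 of 7 passed for Sir2 at 36 h in limma, with 1 at an unadjusted p under 0.05.

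Of genes of uptake, storage and lipolysis, 13 were tested with TSA and 12 with Sir2. At 36 h of Sir2 4 rose and 1 fell (9.26% of all, 6.04% higher and 3.22% lower), with a median of 0.01 over the 12 against -0.02 over all tested. Plin2, the coat protein of lipid droplets, was 1101 ± 42.4 in Sir2 against 332.6 ± 9.72 in vector cells, a log2 change of 1.70 ± 0.09 (adjusted p = 3.32e-06). Lpl, the enzyme that Angptl4 inhibits, was 79.5 ± 11.8 in Sir2 against 36.3 ± 5.93 in vector cells (SD, n = 3 each), a change of 0.97 ± 0.18 (adjusted p = 0.00436). The fatty acid transport protein Slc27a1 rose by 0.93 ± 0.14 and the caveolar protein Cav1 by 1.04 ± 0.22. The gene that fell was Dbi, the acyl-CoA binding protein (-0.46 ± 0.13, adjusted p = 0.0467), which lies outside the rule for named genes and was chosen after its values were seen. At 12 h of Sir2 Plin2 was higher by 0.61 ± 0.09 (adjusted p = 0.00243), and the effects at the 2 times differed by 1.09 ± 0.13 (adjusted p = 0.00304). With TSA 2 of 13 passed at 48 h, 1 in each direction (19.6% of all), with a median of -0.59 against -0.03. Lpl and Vldlr, neither of which passed, fell below the filter of 144.9 when either 48 h group was left out. The mean of Lpl was 151.2 over all arrays, 126.6 without control 48 h and 136 without TSA-treated 48 h. For Vldlr these means were 156.8, 142.6 and 141.3. Plin2 was 3472 and 3789 in TSA-treated against 13323 and 16524 in control cells at 48 h, a change of -1.99 ± 0.13 (adjusted p = 8.85e-07), and Dbi rose by 1.04 ± 0.14 (adjusted p = 2.34e-04). At 0 h Plin2 was 11307 and 11315 in TSA-treated against 6959 and 7142 in control cells, higher by 0.67 ± 0.13 (adjusted p = 0.00269), and its TSA effect differed between times (F test, adjusted p = 5.40e-06). For the mean of the 5 times 5 of the 13 were lower and 1 higher (22.0% of all, 11.9% lower and 10.2% higher), among them Cav1 (-0.42 ± 0.08, adjusted p = 0.00141) and Slc27a1 (-0.70 ± 0.14, adjusted p = 0.00233). Of 8 regulators tested with TSA, 3 passed at 48 h, where 19.6% of all passed and 10.5% as higher, all 3 higher (Nrip1 by 0.72, Ucp3 by 0.69 and Pdk4 by 0.55), and of 7 tested with Sir2, 0 passed at 36 h in limma, also at an unadjusted p under 0.05. Pdk4, the kinase that restrains pyruvate oxidation, was higher in TSA-treated cells at 4 h by 1.04 ± 0.16 (adjusted p = 0.00117) and fell by 2.52 on the log2 scale in control cells between 48 h and 0 h (adjusted p = 1.38e-07).

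**Figure D4:**
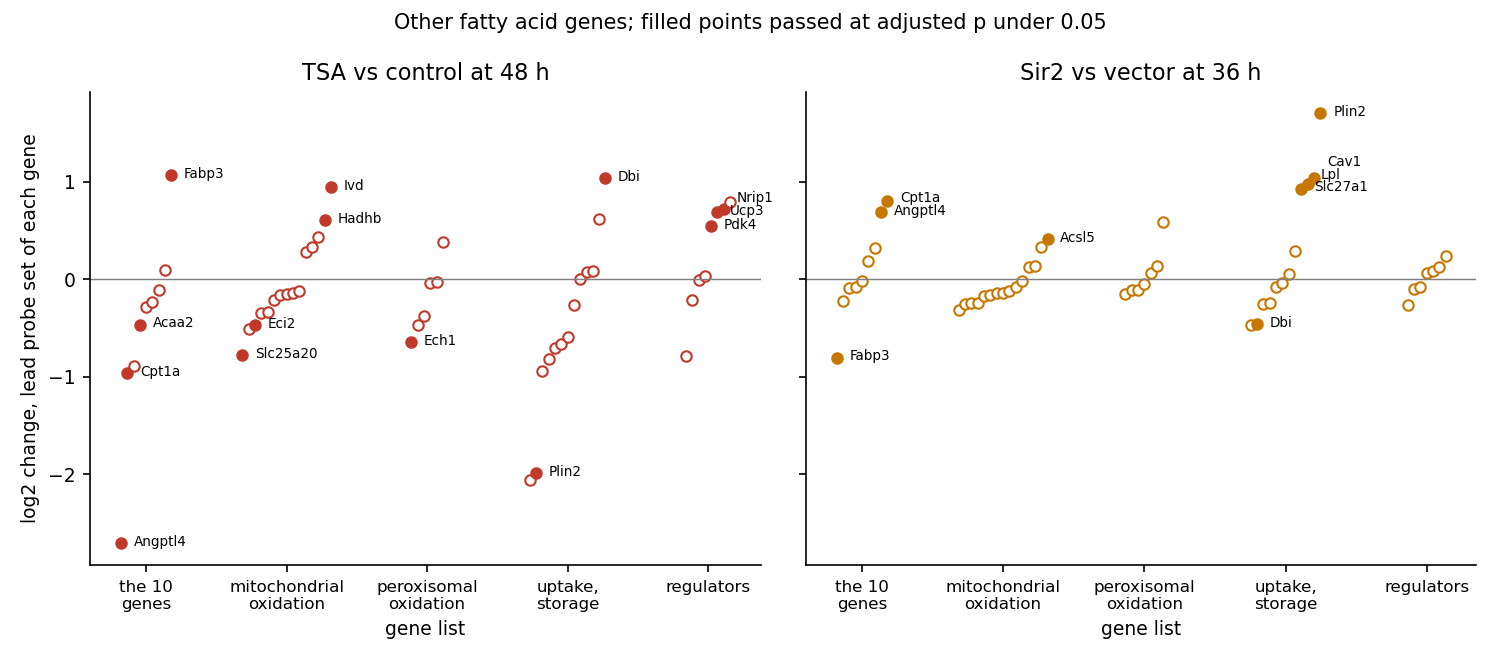
Log2 change of the lead probe set of each tested gene, for the 10 genes followed here and 4 lists of other fatty acid genes, for TSA over control at 48 h (left) and Sir2 over vector at 36 h (right). Filled, named points passed at adjusted p under 0.05. Plin2 lies at -1.99 with TSA and at 1.70 with Sir2.

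The genes whose group means resembled a member most, over the 10 groups of the TSA arm, were found by Pearson's r over log2 means of all tested probe sets, given here as a description. The groups share cells, times and scaling. For Cpt1a they were Card19 (r = 0.913) and Ppp1r21 (0.908), and for Angptl4 Zc3h15 (0.900) and Tbl1x (0.892). For Fabp3 they were Dlat (0.945), a subunit of pyruvate dehydrogenase, and Cacna1s (0.934), the calcium channel of muscle excitation. Fabp3 passed the filter only through the TSA-treated 48 h group, 1 of these 10. Its correlations without that group, also with Cpt1a, were not tested. Over the 4 groups of the Sir2 arm the same pairs had r of 0.300 for Card19, 0.727 for Ppp1r21, -0.021 for Zc3h15, -0.676 for Tbl1x, -0.123 for Dlat and 0.947 for Cacna1s. Between members, r was 0.888 for Cpt1a with Acaa2, 0.799 for Cpt1a with Hadh and -0.498 for Cpt1a with Fabp3.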

How the data were processed

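RNA was measured on 32 arrays of 1 Affymetrix design. The deposited values are intensities on a linear scale. Per the submitters' processing notes the Sir2 and vector arrays came from MAS5, with no version stated, and for the TSA and control arrays no tool is named there. Arrays were grouped by treatment and time from their titles. The members, gene lists and tests were chosen with earlier results of these data known. Of 12488 probe sets 66 controls were left out. Values below 0 were set to 0 and a pseudocount of 137.7 (TSA and control, 40th percentile of values) or 8.82 (Sir2 and vector, 20th percentile) was added before log2. Probe sets with a mean under the 40th percentile of means were not tested. The fits, 1 per arm, used limma 3.58.1 under R 4.3.3 (lmFit, eBayes, 1 mean per group, 10 and 8 residual degrees of freedom). Named genes were the 10 members and up to 4 called genes of smallest adjusted p per list and comparison, not all printed. Simulated data left 7253 of 7453 probe sets unchanged, gave the others the same change at every time, and drew normal noise at the spread limma fitted. In these data the fit recovered, for TSA at 12 h, 58.2% of probe sets changed by 1 on the log2 scale and 5.97% of those changed by 0.5. For Sir2 at 36 h it recovered 94.0% and 29.9%. These rates hold for those settings only. Few arrays a group limit the precision. Alternatives were quantile normalization, median centring, other pseudocounts and filters, trend and robust variance, a replicate block, a covariate for a b at the end of a title, fewer groups in the fit, and leaving out each array. Promoter letters are from RefSeq. Figures were drawn with matplotlib 3.10.9 under Python 3.11.15.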

Additional observations from a re-analysis of the deposited data

Results flagged for a closer look

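The effect of TSA differed between the 5 times for 6 lipid probe sets by the limma F test over all 7453 probe sets. The adjusted p was 7.15e-05 for Cpt1a, 0.00148 for Hadh, 0.0104 for Acaa2 and 0.0131 for Fabp3, which passed the filter only through the TSA-treated 48 h arrays (0.0262 with no filter). For Angptl4 it was 4.25e-05 on the f_at probe set and 4e-04 on the s_at probe set. Cpt1a and Hadh lay above control at 0 h and below it at 24 h. In the Sir2 arm the effect of Sir2 on Fabp3 differed between 36 h and 12 h (adjusted p = 0.0146), with a log2 change of -0.80 at 36 h and 0.21 at 12 h.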

How the results depend on the processing

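The 59 member calls gave 549 values under the alternatives that leave out no array, of which 509 still passed, 40 did not and 0 changed sign, and 538 values with 1 array left out, of which 470 passed, 68 did not and 0 changed sign. The number of member probe sets passing TSA against control at 0 h (2) was 1 with median centring, the smaller pseudocount, no filter, the replicate block or the title suffix covariate, and 0 with only the groups compared. At 4 h (1) it was 3 with quantile normalization, no filter or the 60th percentile filter, 2 with median centring, trend and robust variance or the suffix covariate, and 0 with only the groups compared. At 12 h (3), 24 h (5) and 48 h (5) it was 0 with only the 4 arrays compared, which leaves 2 residual degrees of freedom, and there 0, 9 and 20 of all probe sets passed. The control series F test (8) gave 5 with only its own arrays. Sir2 against vector at 12 h (1) gave 0 with no filter or only the groups compared, and 2 with the 60th percentile filter or trend and robust variance. The mean of both times (5) gave 3 with no filter or the 60th percentile filter, and the difference of the Sir2 effects (1) gave 0 with the 60th percentile filter, which removes Fabp3. Same-numbered arrays of compared groups deviated with correlations of -0.1 to 0.228 for TSA and control and -0.314 to 0.116 for Sir2 and vector, so the numbers were not used as pairs. With the replicate block 1317 of all probe sets passed TSA against control at 0 h, against 1336 without it, and 57 passed the difference of the Sir2 effects, against 131. The block lost the calls of Cpt1a at 0 h (adjusted p = 0.061) and of Acadl (0.122) and Acadm (0.0927) in the control series F test. Over all probe sets 81 passed TSA at 4 h with only the groups compared, against 846, 1534 passed control 48 h against 0 h, against 2630, 1044 passed TSA-treated 48 h against 0 h, against 1965, and 208 passed Sir2 at 12 h, against 414. With no filter the last was 243 and the difference of the Sir2 effects 46, and trend and robust variance gave 207 for that difference. Leaving out 1 array gave 0 to 1 member probe sets for TSA at 0 h, 0 at 4 h, 2 at 12 h, 2 to 5 at 24 h, 4 to 5 at 48 h, 5 to 6 for their mean and 6 to 7 for the F test. It gave 4 to 6 for control 48 h against 0 h, 6 to 8 for the control series, 5 for TSA-treated 48 h against 0 h, 0 to 1, 2 to 3 and 2 to 5 for Sir2 at 12 h, 36 h and their mean, 1 for the difference and 2 to 3 for vector 36 h against 12 h. Where an arm is left with 1 array, that array is assumed to vary like the other groups. The causes of these shifts were not tested. Signal limits Cd36, whose group means were 10.7 to 165.0 with TSA and control, around the filter of 144.9.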
